A study of Mus musculus with 10 samples.

Results

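The potassium channel genes of the mouse hippocampus, other than those of the G protein-gated (GIRK) channels, were compared between Dp1Rhr mice and control littermates. The members were all genes whose symbol begins with Kcn and that had a probe set annotated with exactly 1 symbol, leaving out Kcnj3, Kcnj5, Kcnj6, Kcnj9, Kcne2 and Kcnj13. This gave 86 of the 19938 genes tested. Of these, 83 encode channel subunits or regulators and 3 are antisense noncoding transcripts (Kcnd3os, Kcnmb4os1 and Kcnmb4os2). Of the genes left out, Kcne2 and Kcnj13 are not GIRK genes. They were read in a list of choroid plexus genes, and both had higher means in Dp1Rhr, by 0.59 and 2.32 on the log2 scale.

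Dp1Rhr mice carry a tandem duplication of the part of chromosome 16 from Cbr1 to Fam3b, a region homologous to part of human chromosome 21, and are used to model Down syndrome. Total RNA from the whole hippocampus, right and left together, of 5 Dp1Rhr and 5 control male mice aged 16 weeks was hybridised to Affymetrix Mouse Gene 1.0 ST arrays, with 1 array per mouse. Both groups were littermates from the cross of Dp5Yah with Dp1Rhr mice, on a background labelled C57BL/6N (the study's text names C57BL/6J), and the controls carried neither duplication. The duplication is present in every cell of the mouse, and the comparison asks how the levels of these channel transcripts differ in its presence. Of the members, Kcnj15 alone is inside the duplicated segment, with 3 copies in Dp1Rhr and 2 in control.

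Potassium channels let potassium leave or enter the cell and so set its resting potential, end each action potential and limit repetitive firing. Voltage-gated channels (Kcna, Kcnb, Kcnc, Kcnd, Kcnh, Kcnq) open on depolarisation, and the silent subunits (Kcnf, Kcng, Kcns, Kcnv) form no channel alone and alter Kcnb channels. Inward rectifiers (Kcnj) and the tandem-pore leak channels (Kcnk) hold the resting potential, calcium- or sodium-activated channels (Kcnma, Kcnn, Kcnt) follow activity, and auxiliary subunits (Kcnab, Kcne, Kcnip, Kcnmb) change the gating or the traffic of the pores.

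None of the 86 members passed the test between Dp1Rhr and control (limma, Benjamini-Hochberg over all 19938 genes, adjusted p of 0.05), against 0.802% of all genes tested. The differences were small and mostly towards lower values in Dp1Rhr: 65 of 86 members (75.6%) had a lower mean there, against 50.1% of all genes. The median log2 fold change (the mean log2 value in Dp1Rhr minus that in control) was -0.05 over the members and -0.00 over all genes. The smallest adjusted p over the members, 0.0893, belonged to Kcnmb1, the smooth muscle type beta subunit of the BK channel, with a mean 1.33-fold higher in Dp1Rhr. Next came the silent subunit gene Kcnf1, with a lower mean, and Kcnip1, which encodes a calcium-binding partner of the Kcnd channels, with a higher mean. At an unadjusted p under 0.05, 18 members (20.9%) were found, against 15.0% of all genes. Of these, 15 were lower (17.4% of the members, against 6.44% of all genes) and 3 were higher (3.49%, against 8.55% of all genes). The 18 became 11 without Dp1Rhr replicate 2, which left 12.6% of all genes at such a p.

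**Figure D1:**
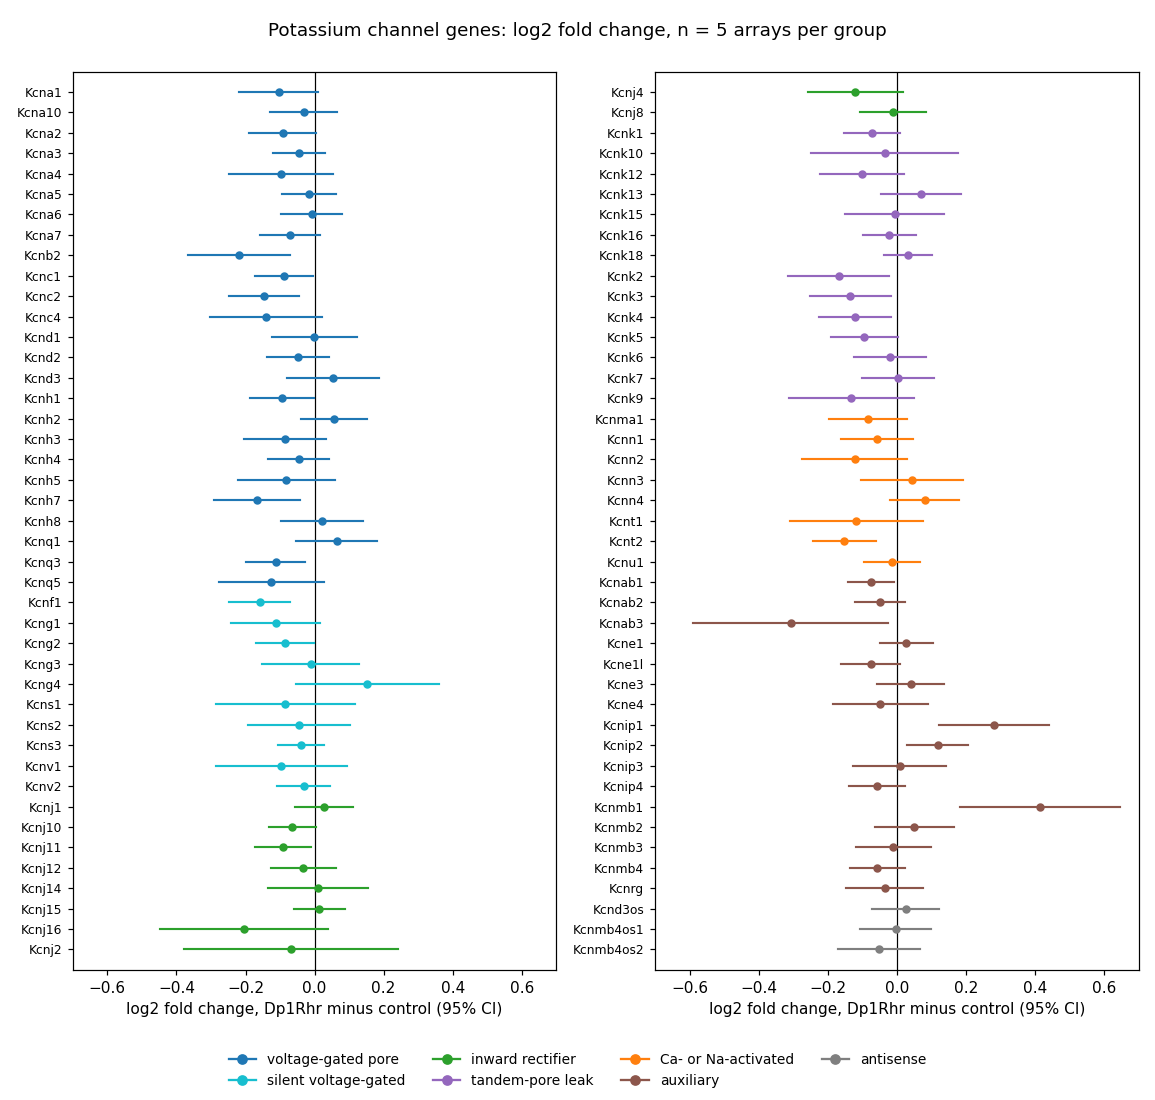
Log2 fold change of each of the 86 potassium channel genes, Dp1Rhr minus control (x axis), with the 95% confidence interval of the limma fit (bars) and coloured by class, from 5 arrays per group. Most points sit left of 0, the lowest point is that of Kcnab3 (-0.31), and Kcnmb1 (0.42) and Kcnip1 (0.28) lie farthest to the right.

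The arrays limited how large a change could have gone unseen. The median standard error of a member's log2 fold change was 0.05. The 95% confidence interval lay inside a 1.25-fold change either way for 79 of the 86 members, and inside a 1.1-fold change for 26. The 7 whose intervals reached beyond 1.25-fold were Kcnab3, Kcnb2, Kcng4, Kcnip1, Kcnj16, Kcnj2 and Kcnmb1. For Kcnab3 and Kcnmb1 they also reached beyond 1.5-fold. These intervals describe the array signal. Of the 86 members, 20 were below the 40th percentile of mean signal over all genes. Whether their signal rose above background was not measured in the values used here. For these dim members a narrow interval therefore does not exclude a change in transcript level.

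The member at 3 copies did not stand apart. Kcnj15, an inward rectifier gene, lies at chromosome 16, 95257558 to 95300260 (GRCm38.p6). Its log2 values were 5.99, 6.07, 5.91, 6.00 and 6.03 in control replicates 1 to 5 and 6.00, 6.00, 6.07, 5.99 and 6.02 in Dp1Rhr replicates 1 to 5. The groups overlapped, and their means were 6.00 and 6.01. The log2 fold change was 0.01 ± 0.03 (SE, n = 5 per group; 95% confidence interval -0.06 to 0.09, limma adjusted p = 0.918), and the interval did not reach 0.58, the log2 of 3 copies over 2. The probe set ranked at the 27.6th percentile of mean signal over all genes, so it was among the dim ones, and whether its signal rose above background was not measured in the values used here. Kcne1, the only other member on chromosome 16, lies outside the segment and differed by 0.03 on the log2 scale (adjusted p = 0.797).

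The 250 bases before an annotated transcript start are shown for the genes the results turn on: the pair with the largest higher means, which overlap each other, a pair with lower means, and the member with an extra copy. They were read from RefSeq for GRCm38.p6 and run 5′ to 3′ along the strand of the gene. The windows of Kcnmb1, Kcnip1 and Kcnt2 reach into the annotated span of the gene, which has a start further out. Capitals mark a match to a searched motif. The windows are Kcnmb1 at chr11:33962763-33963012 (+ strand), Kcnip1 at chr11:33993194-33993443 (- strand, the window with the highest coordinates of its 3), Kcnf1 at chr12:17176889-17177138 (- strand), Kcnt2 at chr1:140245468-140245717 (+ strand) and Kcnj15 at chr16:95257308-95257557 (+ strand).
Kcnmb1: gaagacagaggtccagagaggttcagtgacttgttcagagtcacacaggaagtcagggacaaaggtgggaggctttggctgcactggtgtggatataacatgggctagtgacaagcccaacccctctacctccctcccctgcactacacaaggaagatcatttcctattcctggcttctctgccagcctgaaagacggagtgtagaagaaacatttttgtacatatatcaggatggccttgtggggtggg
Kcnip1: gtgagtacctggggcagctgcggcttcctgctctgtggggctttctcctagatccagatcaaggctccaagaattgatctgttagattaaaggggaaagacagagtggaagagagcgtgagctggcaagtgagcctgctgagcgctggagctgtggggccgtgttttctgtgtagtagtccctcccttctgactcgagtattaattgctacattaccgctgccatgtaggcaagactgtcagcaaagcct
Kcnf1: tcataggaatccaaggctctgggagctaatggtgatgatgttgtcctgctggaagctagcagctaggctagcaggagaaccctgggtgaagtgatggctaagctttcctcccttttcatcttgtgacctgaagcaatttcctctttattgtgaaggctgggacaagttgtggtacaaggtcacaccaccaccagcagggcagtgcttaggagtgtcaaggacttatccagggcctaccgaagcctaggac
Kcnt2: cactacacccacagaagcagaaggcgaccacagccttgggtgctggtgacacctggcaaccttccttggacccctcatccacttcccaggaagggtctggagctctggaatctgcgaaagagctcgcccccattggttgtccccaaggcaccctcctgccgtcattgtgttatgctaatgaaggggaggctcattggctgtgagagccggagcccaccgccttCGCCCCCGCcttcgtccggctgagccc
Kcnj15: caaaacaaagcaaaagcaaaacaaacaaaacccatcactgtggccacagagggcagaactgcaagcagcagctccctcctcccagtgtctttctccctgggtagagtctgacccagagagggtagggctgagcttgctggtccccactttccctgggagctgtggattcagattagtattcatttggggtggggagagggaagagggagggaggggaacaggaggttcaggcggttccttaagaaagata

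Windows were held for 64 of the 86 members, 87 in all, and were searched on both strands for binding motifs of activity-dependent factors and for a TATA box. The E-box CACGTG was in 6.90% of the member windows and in 6.02% of the 32851 windows of all genes, and the AP-1 motif TGANTCA in 4.60% and 6.75%. The EGR motif GCGNGGGCG was in 3.45% and 4.70%, and the CREB motif TGACGTCA in 0 of the 87 windows and 1.55% of all. The TATA box TATAAA was in 1 member window (1.15%), that of Kcnj16, and in 12.4% of all. Of the 5 windows shown, only that of Kcnt2 held a match, to the EGR motif on the opposite strand. The member windows had a median GC content of 58.8% and 8 CpG dinucleotides, against 52.4% and 6 for all windows. These are counts of letters and are no measure of binding.

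Among the voltage-gated pore genes, 21 of 25 had a lower mean in Dp1Rhr, with a median log2 fold change of -0.08. Of the 25, 6 were at an unadjusted p under 0.05, all lower. Over all genes, 15.0% were at such a p in either direction, and 6.44% were lower at it. Above the 40th percentile of mean signal, 21.0% of all genes were at such a p in either direction. Whether this class differs from these shares was not tested. The 8 Kcna genes (Shaker family, axonal delayed rectifier and A-type currents) were all lower on average, from -0.10 for Kcna1 to -0.01 for Kcna6, and none was at an unadjusted p under 0.05. Kcna1 gave -0.10 ± 0.05 (adjusted p = 0.385) and Kcna4 gave -0.10 ± 0.07 (adjusted p = 0.573). Kcna2 gave -0.09 ± 0.04 (adjusted p = 0.366) on its brightest probe set. A second, dimmer probe set of Kcna2 gave -0.26 ± 0.06 (adjusted p = 0.0787 over all probe sets), so the size of its difference depended on the probe set. Without control replicates 2 and 3 the brightest gave -0.03.

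Kcnb2, a pore subunit of the delayed rectifier and the partner of the silent subunits, had the largest difference of this class. Its values were 9.34, 9.34, 9.43, 9.02 and 9.14 in control and 8.96, 9.04, 9.09, 9.03 and 9.06 in Dp1Rhr. Control 4 lay among the Dp1Rhr arrays, so the groups overlapped, and the Dp1Rhr arrays spanned a much smaller range than the controls. The log2 fold change was -0.22 ± 0.07 (limma adjusted p = 0.146), and it was -0.13 without control replicates 2 and 3. It was also -0.13 with a choroid plexus list score (the mean of the standardised values of its genes) as a covariate. With the score of the immediate early genes it was -0.10 (adjusted p = 0.758). The means of that list did not overlap between the groups, so this fit cannot separate the score from the genotype.

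The 3 Kcnc genes (fast-spiking channels of the Shaw family) were all lower on average, with a median of -0.14. Kcnc2 read 10.27, 10.21, 10.07, 10.20 and 10.04 in control and 9.97, 10.08, 10.004, 9.999 and 10.01 in Dp1Rhr. Only Dp1Rhr 2 lay within the control range. The difference was -0.15 ± 0.05 (adjusted p = 0.154) and stayed at -0.16 without control replicates 2 and 3. Kcnc1 gave -0.09 ± 0.04 (adjusted p = 0.312; -0.05 without these controls), and Kcnc4, with the widest scatter of the 3, gave -0.14 ± 0.07 (adjusted p = 0.41).

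In the Kcnh family (ether-a-go-go related channels), 5 of 7 genes had a lower mean. The erg channel gene Kcnh7 read 10.16, 10.31, 10.29, 10.19 and 10.32 in control and 10.01, 9.998, 10.29, 10.03 and 10.11 in Dp1Rhr. All Dp1Rhr arrays but replicate 3 were below every control. The difference was -0.17 ± 0.06 (adjusted p = 0.183), and without Dp1Rhr replicate 3 it was -0.22 (adjusted p = 0.0485), so this array decided on which side of the threshold the gene lay. Its relative Kcnh2 differed in the other direction, by 0.06 ± 0.04 (adjusted p = 0.618).

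The M-current gene Kcnq3, whose channels restrain repetitive firing, gave -0.11 ± 0.04 (adjusted p = 0.186). Its Dp1Rhr arrays ran from 10.52 to 10.63 and its controls from 10.58 to 10.78. Kcnq5 gave -0.13 ± 0.07 and Kcnq1 gave 0.06 ± 0.05. The Kcnd genes, which carry the dendritic A-type current of hippocampal pyramidal cells, differed by -0.05 (Kcnd2, adjusted p = 0.665), -0.00 (Kcnd1) and 0.05 (Kcnd3), with 95% intervals that held 0.

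Of the 10 silent subunit genes, 9 had a lower mean, with a median of -0.06. Kcnf1 read 9.18, 9.29, 9.29, 9.21 and 9.27 in control and 9.03, 9.07, 9.01, 9.17 and 9.17 in Dp1Rhr. Every Dp1Rhr array was below every control, although Dp1Rhr 4 and 5 came within 0.02 of control 1. The difference was -0.16 ± 0.04 (95% confidence interval -0.25 to -0.07, limma adjusted p = 0.0894) and -0.13 without control replicates 2 and 3. Groups that did not overlap were found for 2 members in the lower direction, Kcnf1 and Kcnab1 (2.33% of the members, against 1.70% of all genes), and for 0 in the higher direction (against 1.82% of all genes). Kcng2 gave -0.09 ± 0.04 (adjusted p = 0.316) and Kcns3 gave -0.04 ± 0.03 (adjusted p = 0.617). Kcng4 was the only silent subunit gene with a higher mean, 0.15 ± 0.10 (adjusted p = 0.509).

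**Figure D2:**
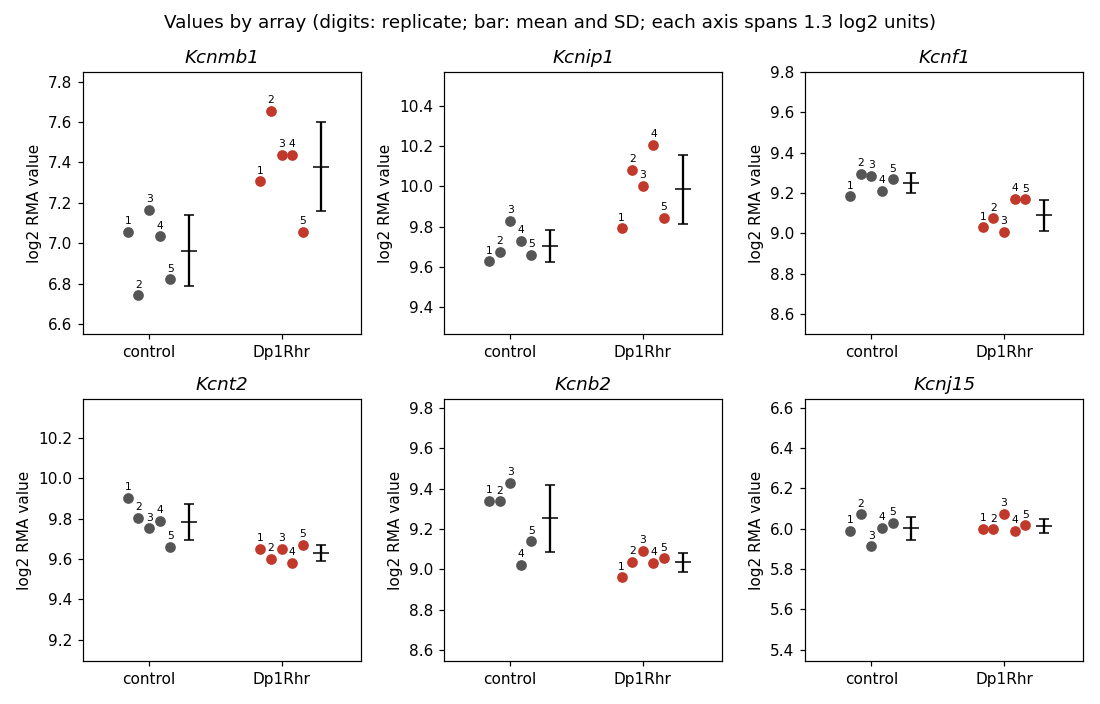
Log2 RMA values (y axis, each panel spanning 1.3 log2 units) of 6 potassium channel genes in the 5 control and 5 Dp1Rhr arrays, with the replicate number at each point and the group mean and SD beside it. The groups are apart for Kcnf1, overlap through 1 array for Kcnt2, Kcnb2, Kcnmb1 and Kcnip1, and share their range for Kcnj15, the gene with 3 copies in Dp1Rhr.

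In the calcium- and sodium-activated class, 6 of 8 genes had a lower mean (median -0.07). By the grouping used here the 8 include Kcnu1 (-0.02), a dim member, beside the Kcnma, Kcnn and Kcnt genes named above. The sodium-activated channel gene Kcnt2 read 9.91, 9.80, 9.75, 9.79 and 9.66 in control and 9.65, 9.60, 9.65, 9.58 and 9.67 in Dp1Rhr. Only Dp1Rhr 5 lay within the control range, just above control 5. The difference was -0.15 ± 0.04 (adjusted p = 0.109). Its paralog Kcnt1 gave -0.12 ± 0.09 (adjusted p = 0.603), with control 1, at 8.16, close to the lowest Dp1Rhr array, at 8.15. Kcnma1, the BK pore, gave -0.08 ± 0.05 (adjusted p = 0.513) and Kcnn2, an SK pore that shapes the afterhyperpolarisation, gave -0.12 ± 0.07 (adjusted p = 0.46). Kcnn3 and Kcnn4 had higher means, by 0.05 and 0.08.

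The tandem-pore leak genes had lower means in 11 of 14 cases (median -0.05). At an unadjusted p under 0.05, 6.44% of all genes were lower. Above the 40th percentile of mean signal, 21.0% of all genes were at such a p in either direction. Whether this class differs from these shares was not tested. In it, 3 genes were at such a p, all lower. These were Kcnk2 and Kcnk4, the mechanosensitive TREK-1 and TRAAK channels, and Kcnk3, the acid-sensitive TASK-1. Kcnk2 gave -0.17 ± 0.07 (adjusted p = 0.254), Kcnk3 -0.13 ± 0.05 (adjusted p = 0.261) and Kcnk4 -0.12 ± 0.05 (adjusted p = 0.25). Without control replicates 2 and 3 the difference was -0.14 for Kcnk2, -0.07 for Kcnk3 and -0.08 for Kcnk4. Kcnk1 gave -0.07 ± 0.04 (adjusted p = 0.41), and Kcnk13 had the highest difference of the family, 0.07 ± 0.05.

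Of the 10 inward rectifier genes among the members, 7 had a lower mean (median -0.05). Kcnj13, an inward rectifier gene left out of the members, gave 2.32 ± 0.89 (limma adjusted p = 0.238). It read 6.28 and 6.54 in controls 2 and 3, against 10.24 to 11.05 in the other controls and 10.60 to 11.79 in Dp1Rhr. Kcnj11, the pore of the ATP-sensitive channel, gave -0.09 ± 0.04 (adjusted p = 0.26), with 8.56 to 8.69 in control and 8.46 to 8.60 in Dp1Rhr. Kcnj10, the astrocytic channel that clears potassium from the extracellular space, gave -0.06 ± 0.03 (95% confidence interval -0.13 to 0.00, adjusted p = 0.363). Its partner subunit gene Kcnj16 gave a larger but more scattered -0.20 ± 0.11 (adjusted p = 0.434), and Dp1Rhr 5, at 8.32, was above every control but replicate 2. The neighbouring gene Kcnj2, 38.2 kb away on chromosome 11, had one of the widest ranges over the 10 arrays, 0.79, with 7.12 to 7.91 in Dp1Rhr, so that its difference of -0.07 ± 0.14 (adjusted p = 0.894) gave no direction. It turned to 0.02 without Dp1Rhr replicate 4 and 0.01 without Dp1Rhr replicate 5.

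Of the 16 auxiliary subunit and regulator genes, 9 had a lower mean, with a median of -0.02. The 3 members that were higher at an unadjusted p under 0.05 (Kcnmb1, Kcnip1 and Kcnip2) were all of this class. Whether the classes differed from each other was not tested. The Kcnab genes, which encode the cytoplasmic beta subunits of Kcna channels, were lower in 3 of 3. Kcnab1 did not overlap between the groups, but by a narrow gap, since the lowest control was at 10.876 and the highest Dp1Rhr array at 10.871, and the difference was -0.07 ± 0.03 (adjusted p = 0.275). Kcnab2 gave -0.05 ± 0.03 (adjusted p = 0.556).

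Kcnab3 had the lowest log2 fold change of the 86 members, and one of the widest ranges, 0.86. It read 8.74, 9.46, 9.15, 8.90 and 9.27 in control and 8.60, 8.74, 8.80, 8.74 and 9.12 in Dp1Rhr. The controls spread over more than the difference itself, and Dp1Rhr 3 and 5 lay inside their range. The log2 fold change was -0.31 ± 0.13 (95% confidence interval -0.59 to -0.03, adjusted p = 0.284), and -0.17 without control replicates 2 and 3 (adjusted p = 0.623). It was -0.12 with the choroid plexus covariate. With the immediate early covariate, whose list means did not overlap between the groups, it was -0.03 (limma adjusted p = 0.968).

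The Kcnip genes, which encode the calcium-binding partners of Kcnd channels, had higher means in 3 of 4 cases, with a median of 0.06. Kcnip1 read 9.63, 9.68, 9.83, 9.73 and 9.66 in control and 9.79, 10.08, 10.002, 10.21 and 9.84 in Dp1Rhr. Dp1Rhr 1 lay below control 3 and every other Dp1Rhr array was above all controls. The difference was 0.28 ± 0.07 (95% confidence interval 0.12 to 0.44, limma adjusted p = 0.0938), or 1.21-fold. Kcnip2 gave 0.12 ± 0.04 (adjusted p = 0.189), with 10.69 to 10.86 in control and 10.80 to 10.96 in Dp1Rhr. Kcnip3 gave 0.01 ± 0.06 (adjusted p = 0.976), with no stable direction, since it was -0.02 without control replicate 1, and Kcnip4 gave -0.06 ± 0.04.

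Kcnmb1 had the highest log2 fold change of the members and the widest range, 0.91. It read 7.06, 6.74, 7.16, 7.03 and 6.82 in control and 7.31, 7.66, 7.44, 7.44 and 7.06 in Dp1Rhr. Only Dp1Rhr 5 lay within the controls. The difference was 0.42 ± 0.11 (95% confidence interval 0.18 to 0.65, limma adjusted p = 0.0893), and without Dp1Rhr replicate 5 it was 0.50 (adjusted p = 0.0316), so this array decided on which side of the threshold it lay. The other BK beta subunit genes differed by 0.05 (Kcnmb2), -0.01 (Kcnmb3) and -0.06 (Kcnmb4, the neuronal form). Of the 4 Kcne members, Kcne1l had the smallest adjusted p, 0.408, with a difference of -0.08 ± 0.04. Kcne2, left out of the members, gave 0.59 ± 0.25 (limma adjusted p = 0.296).

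Kcnmb1 and Kcnip1 share a place in the genome. Kcnmb1 (chromosome 11, 33962955 to 33973641, + strand) lies wholly inside the span of Kcnip1 (33629339 to 33993348, - strand), so the members with the largest positive differences overlap on opposite strands. In both genes Dp1Rhr 2, 3 and 4 were the highest 3 of the 10 arrays. They are therefore not counted here as independent of each other, and what share of the Kcnmb1 signal comes from transcripts across the locus was not tested. Of a list of 14 habenula and thalamus genes, 3 markers of the habenula, a structure beside the hippocampus, were high in the same 3 arrays. They were picked after their values were seen. Tac2, a neuropeptide gene of medial habenula neurons, read 7.58, 7.98, 9.20, 7.54 and 7.62 in control and 7.93, 9.87, 8.995, 10.34 and 8.30 in Dp1Rhr. Gpr151, a receptor gene of the habenula, read 6.12 to 6.32 in control and 7.24, 6.83 and 7.47 in Dp1Rhr 2, 3 and 4, against 6.14 and 6.26 in the other two, and Pou4f1 was also highest in these 3. Control 3, the highest control for Tac2, was the highest control for Kcnmb1 and Kcnip1 as well. With the score of Tac2, Gpr151 and Pou4f1 as a covariate, a fit chosen after seeing the data, the difference was 0.11 for Kcnip1 (adjusted p = 0.367) and 0.25 for Kcnmb1 (adjusted p = 0.469). Because these 3 markers were high in the same arrays, smaller differences were built into this fit, and it decides nothing about tissue. The mean of the whole habenula and thalamus list (14 genes, 7 lower and 7 higher) was 8.49, 8.37 and 8.55 in Dp1Rhr 2, 3 and 4. It was 8.09 in Dp1Rhr 1 and 5, and was also high in control 1, at 8.50. Of the lower genes, Tcf7l2 gave -0.86 (limma adjusted p = 0.0901) and Adarb1 gave -0.15 (adjusted p = 0.0797). With the score of this whole list as the covariate the difference was 0.30 for Kcnip1 and 0.45 for Kcnmb1.

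Members that lie close together did not always share a direction. The Kcna3, Kcna2 and Kcna10 genes on chromosome 3 differed by -0.05, -0.09 and -0.03, and Kcna5, Kcna1 and Kcna6 on chromosome 6 by -0.02, -0.10 and -0.01. Kcnmb2 and Kcnmb3, 265 kb apart, differed by 0.05 and -0.01. The antisense transcripts followed no common direction, with 0.03 for Kcnd3os, -0.00 for Kcnmb4os1 and -0.05 for Kcnmb4os2.

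Brighter and dimmer members were counted apart, and the difference between them was not tested. Of the 66 members above the 40th percentile of mean signal over all genes, 54 (81.8%) had a lower mean, with a median of -0.07, against 50.3% and a median of -0.00 over all 11963 genes above it. All 18 members at an unadjusted p under 0.05 were among these 66 (27.3%, against 21.0% of all genes there). Of the 20 members below it, 11 were lower, with a median of -0.01. Leaving the antisense transcripts out, 63 of 83 members had a lower mean.

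**Figure D3:**
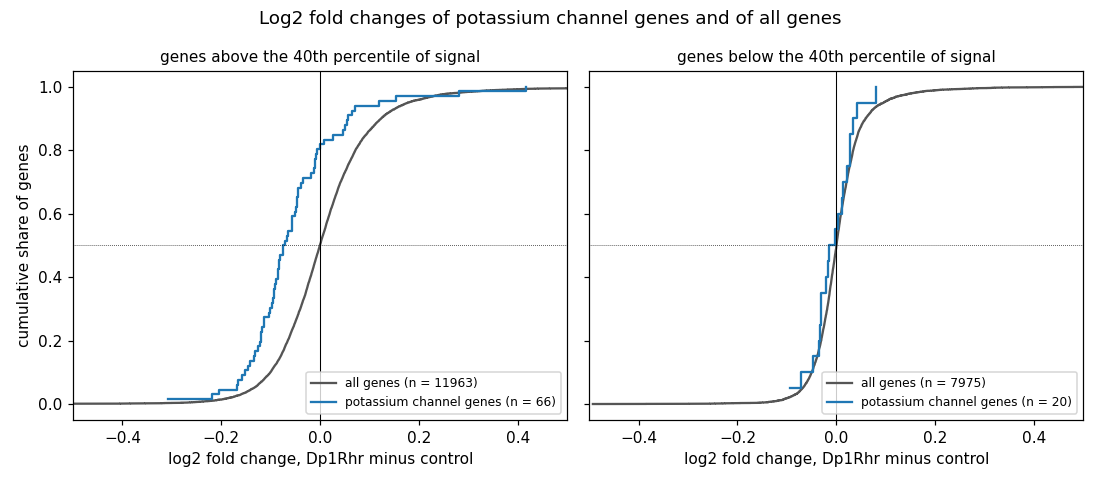
Cumulative share of genes (y axis) by log2 fold change, Dp1Rhr minus control (x axis), for the potassium channel genes (blue) and all genes (grey), above and below the 40th percentile of mean signal. Above it the channel curve lies left of the curve of all genes and crosses 0 at 81.8% against 50.3%, and below it the curves run close together.

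The lean was not carried by all arrays alike. Relative to each gene's mean over the 10 arrays, the members averaged 0.09 above it in control 2 and 0.03 in control 3, and -0.05 and -0.04 in Dp1Rhr 2 and 1, while the other 6 arrays were between -0.01 and 0.01. Control 2 was the highest array for 28 of the 86 members, and Dp1Rhr 2 the lowest for 20. Control 2 and 3 also stood apart in tissue markers: their choroid plexus list means (24 genes, all 24 with a higher mean in Dp1Rhr and 0 past the threshold) were 6.95 and 7.07, against 8.02 to 8.59 in the other controls and 8.19 to 8.93 in Dp1Rhr. Their immediate early gene means (20 genes, 19 with a lower mean in Dp1Rhr and 2 past the threshold) were 9.11 and 9.36, against 8.70 to 8.87 and 8.56 to 8.65. Every control was thus above every Dp1Rhr array in this list mean. The study reports lower Npas4 in Dp1Rhr, and lower immediate early genes by qRT-PCR in Down syndrome models. Pan-neuronal means (9 genes) were 12.26 and 12.21 in controls 2 and 3, 12.18 to 12.19 in the other controls and 12.17 to 12.19 in Dp1Rhr. The dentate granule means (12 genes) were 9.17 and 9.25 in controls 2 and 3, the lowest of the 10 arrays, and 9.27 to 9.39 in the others, and the interneuron means (10 genes) were 10.01 and 10.02 against 9.81 to 9.95 in the other controls and 9.94 to 10.06 in Dp1Rhr. The pyramidal means (13 genes) ran from 9.65 to 9.76 over all arrays. Other lists were higher in Dp1Rhr: the oligodendrocyte list in 9 of 9 genes (median log2 fold change 0.14), the endothelial list in 8 of 9 (0.16) and the meningeal list in 8 of 9 (0.12), with 0 genes of these 3 lists past the threshold. The blood list, with only 2 genes measured, had a median of 0.34 and 1 gene past the threshold. Its means ran from 7.02 to 7.28 in control and from 7.31 to 7.63 in Dp1Rhr. The part of these differences in the channel values was not tested beyond the fits that follow.

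Without control replicates 2 and 3, 59 of 86 members (68.6%) had a lower mean, against 47.3% of all genes, with a median of -0.03, and 12 (14.0%) were at an unadjusted p under 0.05, against 13.2% of all genes. With the choroid plexus list score as a covariate, 51 members were lower (46.1% of all genes were) and the median was -0.02. With the immediate early list score as a covariate, 55 were lower (48.0% of all genes) and the median was -0.03. The immediate early list means did not overlap between the groups (8.70 to 9.36 in control, 8.56 to 8.65 in Dp1Rhr). That fit therefore cannot separate the score from the genotype. In it Kcnf1 was -0.10, Kcnn2 -0.04 and Kcnk4 -0.07, and Kcnh7 was -0.10 with either score, while Kcnc2 (-0.22) and Kcnq3 (-0.19) were further from 0. The median of -0.05 was thus nearer 0 in each of these fits. In whole tissue, fewer cells of a type and less RNA per cell cannot be told apart.

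**Figure D4:**
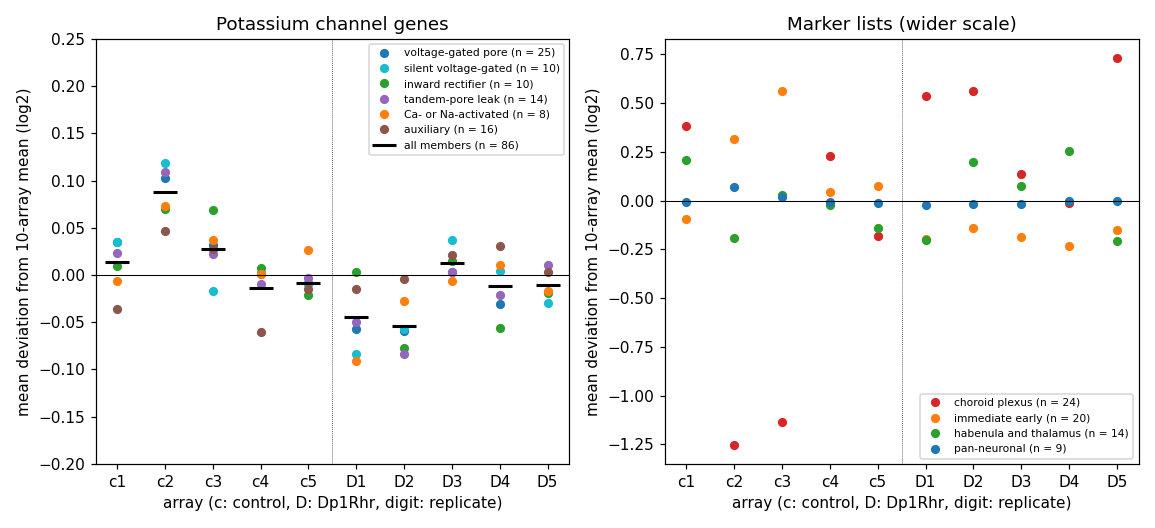
Mean deviation from the 10-array mean on the log2 scale (y axis) in each control (c) and Dp1Rhr (D) array, for the classes of potassium channel genes (left, with the mean of all 86 members as a bar) and for 4 marker lists (right, on a wider scale). Control 2 has the highest channel mean, 0.09, and controls 2 and 3 have low choroid plexus and high immediate early means. The pan-neuronal list is also highest in control 2, with a list mean of 12.26 against 12.17 to 12.21 in the other arrays.

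FCROS, the rank method of the study, which calls the genes in the tails of its rank score, called 8 members. The 6 called lower were Kcnab3, Kcnb2, Kcnf1, Kcnh7, Kcnj16 and Kcnt2 (6.98% of the members, against 1.99% of all genes), and the 2 called higher were Kcnip1 and Kcnmb1 (2.33%, against 3.40% of all genes).

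Genes that work with these channels but carry other symbols were read from a list of 41, of which 36 were measured: regulatory subunits, clustering proteins, the sodium-potassium pump and potassium-chloride cotransporters. None passed the limma test, against 0.802% of all genes. At an unadjusted p under 0.05, 1 was lower (6.44% of all genes were) and 3 were higher (8.55% of all genes were). On average 20 were lower, and the median log2 fold change was -0.01. Fxyd1, a regulator of the sodium-potassium pump, had the smallest adjusted p. It read 9.75, 9.47, 9.84, 9.67 and 9.75 in control and 10.16, 10.12, 9.90, 9.98 and 9.95 in Dp1Rhr. The groups did not overlap, and the difference was 0.32 ± 0.07 (limma adjusted p = 0.0609), or 1.25-fold higher. Atp1b2, a beta subunit of the pump, gave -0.11 ± 0.03 (adjusted p = 0.12), and Tmem175, a lysosomal potassium channel, gave 0.15 ± 0.05 (adjusted p = 0.168). FCROS called 0 of the partner genes lower and 2 higher, against 1.99% and 3.40% of all genes. The 2 were Fxyd1 and Lrrc55, a BK channel gamma subunit gene, which gave 0.41 (limma adjusted p = 0.401).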

How the data were processed

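Expression was measured on Affymetrix Mouse Gene 1.0 ST arrays in 5 control and 5 Dp1Rhr hippocampi, grouped by the labels, which call them biological replicates. The authors processed the scans with RMA (background correction, quantile normalization and probe summary) and deposited log2 values. The submitters' notes list limma and the build mm10 besides RMA. No version of RMA, and no statement of the set of arrays that went through it at once, was found in the sources. Quantile normalization would hide a change common to all genes. Precision was limited by the number of arrays, whose medians ran from 6.77 to 6.83 and whose correlations with each other ran from 0.996 to 0.998.

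Of 35556 probe sets, 21789 had 1 annotated symbol, 1621 had several and 12146 were not listed in the annotation used. The brightest probe set was taken for 999 genes with several, which left 19938 genes. RefSeq (GRCm38.p6) gave coordinates for all 86 members. Groups were compared with limma 3.58.1 under R 4.3.3 (lmFit and eBayes, two-sided, Benjamini-Hochberg over all genes, adjusted p of 0.05). The model was checked on simulated data with planted changes. The study's FCROS, rewritten here (trim 0.25, calls at f below 0.025 or above 0.975), served for comparison only, because it calls the tails of a rank score without adjusting over genes. The fit was repeated with the replicate number as a block, with each array and then controls 2 and 3 left out, and with a second quantile normalization, median centring, a filter at the 40th percentile of signal, all probe sets or their mean, array weights, the trend and robust options of eBayes, and the mean of choroid plexus genes as a covariate. The immediate early covariate and those of the habenula and thalamus list and of 3 habenula genes were added after seeing the data. Each covariate was a score, the mean over its genes of values standardised per gene over the arrays.

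The members, classes and lists were chosen with earlier results of these data known. Named genes were Kcnj15, the member with the smallest p in each subfamily of 3 or more, a fixed list of well-known hippocampal channels, the 3 members with the widest range and the 3 partner genes with the smallest p. Kcnf1, Kcnt2, Kcnb2 and other members were named after their values were seen. No set test was run.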

Additional observations from a re-analysis of the deposited data

Results flagged for a closer look

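In 3 of the 62 groups of 5 arrays checked for the named genes, the highest array lay far from the others, with a gap to its nearest neighbour, as a share of the range of the group, above Dixon's critical value of 0.71. Chance gives such a gap in about 1 in 20 groups. The 3 were control arrays at the high end. For Kcnd2, the main A-type channel of pyramidal cell dendrites, control replicate 3 was at 11.71 and the next at 11.54 (gap over range 0.801). For Kcnc1 control replicate 2 was at 9.79 and the next at 9.66 (0.769), and for Kcnab2 control replicate 3 was at 12.45 and the next at 12.36 (0.793). These are the control arrays with low choroid plexus and high immediate early means. In the other controls the immediate early means, 8.70 to 8.87, were also above every Dp1Rhr array, at 8.56 to 8.65. The part of those differences in the channel values was not tested.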

How the results depend on the processing

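The count of members past the threshold was 0 in 13 further limma settings, and FCROS called 8. Leaving out 1 array at a time gave 0 in 8 of 10 cases and 1 in the others, a range of 0 to 1, with Kcnh7 past it without Dp1Rhr replicate 3 and Kcnmb1 without Dp1Rhr replicate 5. The number of members at an unadjusted p under 0.05, 18, ran from 11 (without Dp1Rhr replicate 2) to 23 when arrays were left out and was 10 with the mean of 3 habenula genes as a covariate, and leaving out arrays moved the number with a lower mean from 60 to 67 and the median log2 fold change from -0.06 to -0.04. The replicate numbers did not pair the arrays (correlations of deviations from -0.34 to 0.12), and with the replicate block 0 members and 4 of all genes passed, 65 members were lower and 15 were at an unadjusted p under 0.05. For the partner genes, 1 (Fxyd1) passed under a second quantile normalization, the 40th percentile filter, eBayes with trend and robust, and array weights. Small differences changed sign. When arrays were left out, Kcnj15 ranged between -0.00936 (control 3 absent) and 0.0304, Kcnip3 between -0.0224 (control 1 absent) and 0.0648, and Kcnj2 between -0.176 and 0.0208 (Dp1Rhr 4 absent), and Kcnj2 was 0.0299 with the 3 habenula genes. Kcnip3 was -0.00303 after a second quantile normalization and -0.00463 with the habenula and thalamus covariate. With the immediate early covariate, whose list means did not overlap between the groups, Kcnj15 was -0.0204, Kcna2 0.00535, Kcnd2 0.0443 and Kcnab2 0.0132. The causes were not tested. Another scaling moved the median of all genes by at most 0.0060.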
